A study of Mus musculus with 7 samples.

Results

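The albumin gene family locus of mouse chromosome 5 was examined in ChIP-seq peak lists of liver for CTCF and for the cohesin subunit Rad21. Alb, Afp and Afm adjoin each other, and Gc lies apart from them, 1003124 bp away between the nearest gene edges. In the mm9 annotation, the span of Alb, Afp and Afm extended by 100 kb on each side was chr5:90789915-91082569 (292655 bp), and that of Gc was chr5:89746549-89986790 (240242 bp). All peaks that overlapped these 2 windows were taken, and these were 39 of the 68667 CTCF peaks and 52 of the 68656 Rad21 peaks. The window of Alb, Afp and Afm held 26 CTCF and 34 Rad21 peaks, and that of Gc held 13 and 18.

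The livers were from female CD-1 mice (strain Crl:CD1(ICR)) aged 8 weeks, for which the labels give no treatment and no engineered allele. There were 4 CTCF libraries and 3 Rad21 libraries, and the libraries of each antibody had been pooled into 1 list of peaks. No value below therefore has a replicate error and no test between groups was possible, so intervals and background shares are given in place of tests. Such a list holds binding sites and no transcript levels. The tissue label could thus not be checked against marker genes, and whether these genes were transcribed in these livers was not measured.

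CTCF is a zinc finger protein that binds a long, directional DNA motif and halts cohesin, the ring-shaped complex that extrudes chromatin loops. Rad21 is the subunit that closes the ring. Sites with both are typical of loop anchors and domain borders, while cohesin without CTCF is often found at active enhancers and promoters. The 4 genes descend from a common ancestor and encode plasma proteins made by hepatocytes. Alb encodes albumin, the main carrier protein of plasma, Afp encodes alpha-fetoprotein, its fetal counterpart that is silenced after birth, Afm encodes afamin, which binds vitamin E, and Gc encodes the vitamin D binding protein. Alb is among the most highly transcribed genes of adult liver.

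Peaks were placed in 3 classes. A CTCF peak and a Rad21 peak that shared at least 1 bp were CAC (cohesin-and-CTCF), the remaining CTCF peaks were Lone CTCF, and the remaining Rad21 peaks were CNC (cohesin-non-CTCF). Strength is the fold enrichment at the summit over local background as deposited, and it is compared only among peaks of the same antibody. A percentile is the percentage of peaks of the whole same list, or where so named of the same class, with a lower value. Distances run from the annotated start of a gene to the summit, along the direction of transcription, with upstream positions negative.

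A CTCF motif 20 bp wide was learned from the 1000 strongest autosomal CTCF peaks off chromosome 5, and its consensus is NNGCCACNAGGGGGCGCNNN. Motif calls needed a score of 13.8 bits or more within 100 bp of the summit, which 1% of flanking windows reached. At strong CAC peaks (CTCF fold enrichment of at least 10) that bound a member gene, and at the strongest CAC peak of each window, the best matches are shown because their letters and strands are what the 2 windows can be compared by. Each is written 5′ to 3′ on its own strand, with capitals where the letter equals that of the consensus. They are named by the distance of the CTCF summit from a start.
Alb -55.5 kb (chr5:90834414-90834433, plus strand, 12.5 bits): ataaCACgAGGtGGCagtct
Afp +3.9 kb, intron 3 (chr5:90923617-90923636, minus strand, 10.4 bits): aaaCCgCtAGGGGGaGaaaa
Afp +10.2 kb, intron 7 (chr5:90929949-90929968, minus strand, 20.5 bits): tgcCCgCcAGaGGGCaCtct
Afm +70.2 kb (chr5:91018150-91018169, minus strand, 15.6 bits): tgGCCAatAGaGGGaGgaag
Gc +73.3 kb (chr5:89813489-89813508, minus strand, 13.0 bits): gatCCACtAGatGGaagcaa
Gc -42.6 kb (chr5:89929408-89929427, minus strand, 17.2 bits): tgGtCAacAGGGGGCGCtgt
Gc -85.9 kb, in Npffr2 (chr5:89972678-89972697, plus strand, 12.1 bits): aaaCCACtgGaGGGaaCcct
A further 3 matches were added after their values were seen, because they lie inside Gc or at the only Lone CTCF peak of the windows with a motif.
Gc +2.06 kb, intron 1 (chr5:89884740-89884759, plus strand, 15.8 bits): caaCCAgcAGGGGGCatgcc
Gc +13.3 kb, intron 3 (chr5:89873539-89873558, plus strand, 16.4 bits): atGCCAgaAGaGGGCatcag
Alb -65.1 kb, Lone CTCF (chr5:90824815-90824834, plus strand, 14.8 bits): cctCCAgaAGGaGGCGCtct

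The locus was dense in peaks of both antibodies. A fold enrichment of at least 5 was reached by 17 of the 39 CTCF peaks (43.6%, 95% Wilson interval 29.3 to 59.0%, against 58.2% of autosomal CTCF peaks) and by 17 of the 52 Rad21 peaks (32.7%, 21.5 to 46.2%, against 48.6%). The background share thus lay inside the interval for CTCF and outside it for Rad21. CTCF peaks numbered 7.32 per 100 kb over both windows, against 3.21 on chromosome 5 and 2.80 on all autosomes. Rad21 peaks numbered 9.76 per 100 kb, against 3.11 and 2.81. In the window of Alb, Afp and Afm the density was 8.88 for CTCF and 11.6 for Rad21, and in that of Gc it was 5.41 and 7.49. With only peaks of fold enrichment of at least 5, the density was 3.19 per 100 kb for each antibody, against 1.63 for CTCF and 1.37 for Rad21 on the autosomes.

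Of the 39 CTCF peaks, 31 were CAC (79.5%, 95% Wilson interval 64.5 to 89.2%), against 73.8% of autosomal CTCF peaks. The other 8 were Lone CTCF (20.5%, against 26.2%). Of the 52 Rad21 peaks, 32 were CAC (61.5%, 48.0 to 73.5%), against 73.4% of autosomal Rad21 peaks. The 20 CNC peaks made up 38.5% (26.5 to 52.0%), against 26.6%, a background share that lies just inside the interval. A larger share of CNC peaks was thus not detectable at this number of peaks. Per 100 kb, there were 3.75 CNC peaks, against 0.746 on the autosomes, and 1.5 Lone CTCF peaks, against 0.733. These intervals cover counting error only.

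CAC peaks of the locus had lower medians than those elsewhere. Their median CTCF fold enrichment was 5.70, from 2.68 to 23.6, against a median of 8.40 over autosomal CAC peaks. Their median Rad21 fold enrichment was 4.56, from 2.55 to 22.7, against 6.14. The Lone CTCF peaks had a median of 3.50, against 3.85. CNC peaks were the only class with a median above its background, at 3.83 against 3.48. They ranged from 2.71 to 5.79. The median of all 39 CTCF peaks stood at the 37.7th percentile of the list, and at the 51.8th when only peaks of -log10 q of at least 10 were counted. The median of all 52 Rad21 peaks stood at the 42.0th percentile of its list, and at the 39.6th under the same filter.

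A motif was called at 8 of the 31 CTCF peaks classed as CAC (25.8%, Wilson interval 13.7 to 43.2%), against 46.2% of autosomal CAC peaks. Under other settings the share was again lower, but the background lay inside the interval. It was 38.7% (23.7 to 56.2%) against 50.2% with the search narrowed to 50 bp, and 40% (19.8 to 64.3%) against 57.1% with peaks of -log10 q of at least 10. At the first threshold, a motif was called at 1 of the 8 Lone CTCF peaks, against 40.1%. None of the 20 CNC peaks had one, and the background was 2.74%. By the Wilson interval, 0 of 20 allows a share of up to 16.1%. The CNC peak nearest to the threshold, 47.2 kb upstream of Alb, scored 13.6 bits. Among the 12 CAC peaks with a CTCF fold enrichment of at least 10, 6 had a motif (50%, 25.4 to 74.6%), against 75.1% of the 21663 such autosomal peaks. At a looser threshold of 8.71 bits, which 5% of flanking windows reached, 11 of the 12 had a match (91.7%), against 90.9%, so that 5 of the 12 scored between the 2 thresholds. The exception was a peak in an intron of Ankrd17, 96.2 kb upstream of Alb, with a fold enrichment of 11.4 and a best score of -0.498 bits.

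**Figure D1:**
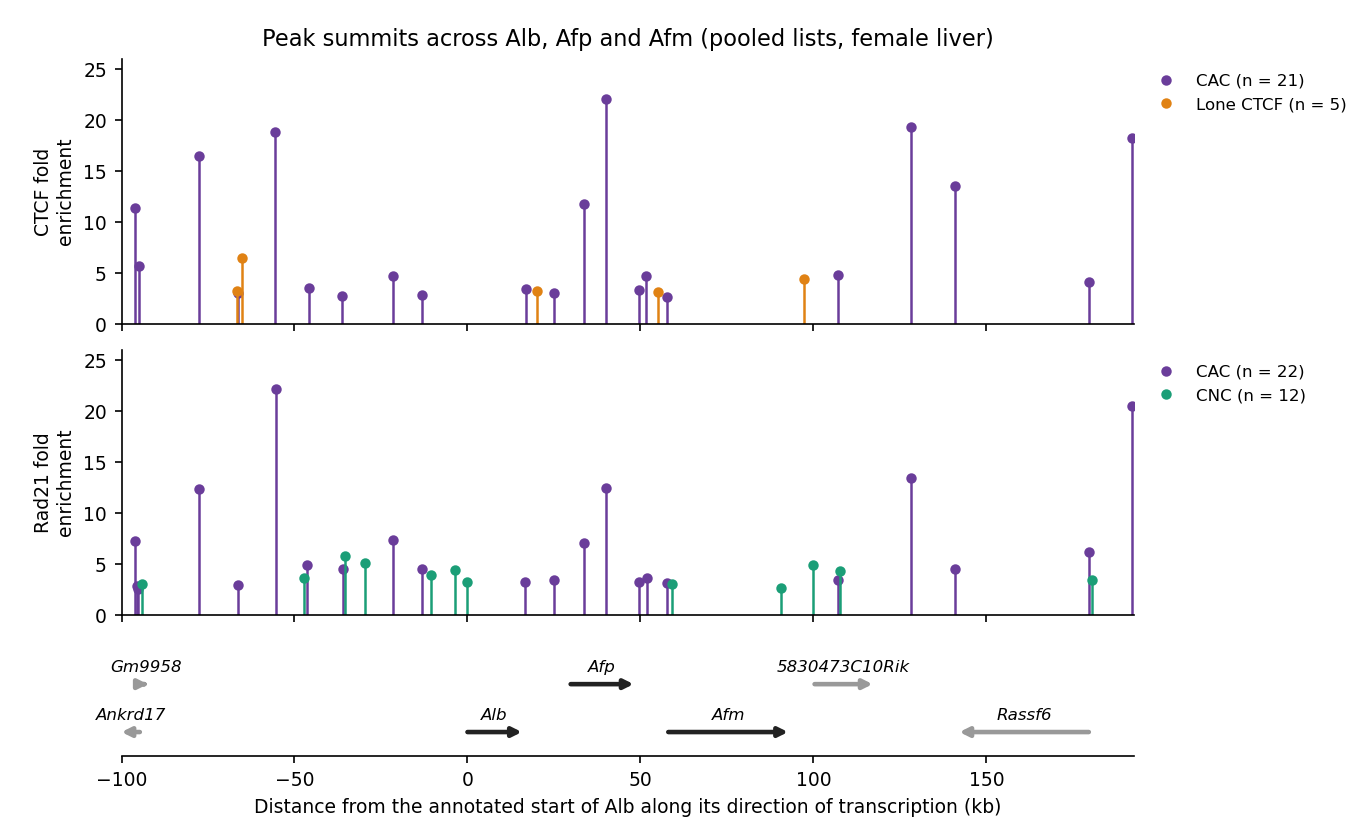
Fold enrichment of each CTCF (top) and Rad21 (middle) peak against the distance of its summit from the start of Alb in kb, coloured by class, with member genes (black) and other protein-coding genes (grey) as arrows in the direction of transcription, cut at the window's edges. Between the strong CAC peaks at -55.5 kb and inside Afp, no CTCF peak exceeds 4.67, while 12 Rad21 peaks lie in that stretch.

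The region just upstream of Alb held cohesin peaks but no strong CTCF peak. In the 50 kb before the start there were 10 Rad21 peaks, of which 6 were CNC and 4 were CAC. On the autosomes, Rad21 peaks numbered 2.81 per 100 kb, and 26.6% of them were CNC. The fold enrichments of the 10 peaks lay between 3.24 and 7.41, with a median of 4.55. Of the 10, 8 had a -log10 q of at least 10, as did 64.2% of autosomal Rad21 peaks. The CTCF list had 4 peaks there, 8.00 per 100 kb against 2.80 on the autosomes. Their fold enrichments lay between 2.75 and 4.67, and none carried a motif. CTCF peaks with a fold enrichment of at least 5 numbered 1.63 per 100 kb on the autosomes, so 50 kb without one is not unusual.

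The Rad21 peak at the Alb start, chr5:90889545-90890055, had its summit 22 bp upstream of the start. It was CNC, with a fold enrichment of 3.24 (16.7th percentile). The next CNC peak upstream, chr5:90886230-90886636, lay at -3.49 kb with a fold enrichment of 4.45 (42.9th percentile). Neither peak was among the stronger Rad21 peaks, although the second stood at the 82.0th percentile of CNC peaks.

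A further 4 CNC peaks followed at -10.7, -29.6, -35.4 and -47.2 kb, with fold enrichments of 3.97, 5.12, 5.79 and 3.68. The peak at -35.4 kb, chr5:90854305-90854757, was the strongest CNC peak of the window and stood at the 95.6th percentile of all CNC peaks. The CAC peaks of the same stretch had their Rad21 summits at -13.1, -21.5, -36.1 and -46.5 kb. The strongest of them, chr5:90868053-90868559 at -21.5 kb, had a fold enrichment of 7.41 in Rad21 and 4.67 in CTCF. The peak at -46.5 kb shared only 13 bp with its CTCF peak, and the summits were 627 bp apart.

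No summit of either antibody fell inside the Alb gene (chr5:90889915-90905629, plus strand, 15 exons). The nearest CAC peaks, of which neither reached a CTCF fold enrichment of 5, were 13.1 kb upstream of the start and 1.09 kb past the end. The nearest with a CTCF fold enrichment of at least 10 were at -55.5 kb (chr5:90834225-90834666, CTCF 18.8, Rad21 22.2) and in intron 3 of Afp (chr5:90923374-90923837, CTCF 11.8, Rad21 7.11). These summits were 89.2 kb apart, and the 2390000 kb of the autosomes held 21663 CAC peaks with a CTCF fold enrichment of at least 10. Besides the peaks that bound it, the stretch held 6 CAC and 1 Lone CTCF peak of the CTCF list, none above 4.67, and 6 CAC and 6 CNC peaks of the Rad21 list. The best matches at its ends, shown above, lay on the plus strand upstream and the minus strand downstream, so that they pointed toward each other across Alb. Both scored below the threshold for a called motif.

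Within 10 kb of the Alb start there were 2 CNC peaks and no CAC or Lone CTCF peak. Over the 21418 autosomal protein-coding genes, 66.4% had a CAC summit within that distance, 27.2% a Lone CTCF summit and 20.7% a CNC summit. A CNC summit within 1 kb, as at Alb, was found at 8.53% of these genes, and at least 2 within 10 kb at 5.08%. With only peaks of -log10 q of at least 10, Alb was the only member with a CNC peak within 10 kb, and 11.4% of genes had one. This was the peak at -3.49 kb (-log10 q of 12.5), whereas the peak at the Alb start had a -log10 q of 6.79 and dropped out.

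The strongest CTCF peak of the window lay inside Afp (chr5:90919740-90937933, plus strand, 15 exons). This CAC peak in intron 7, chr5:90929687-90930205, reached 22.1 in CTCF (94.9th percentile) and 12.5 in Rad21 (84.2nd percentile). Its motif scored 20.5 bits on the minus strand, opposite to Afp. The CAC peak in intron 3 was the other one inside the gene, at the 71.8th percentile of the CTCF list.

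The Afp start itself had no peak within 1 kb. Within 10 kb upstream lay a CAC peak at -4.78 kb (chr5:90914654-90915073, CTCF 3.03, Rad21 3.49) and a Lone CTCF peak at -9.85 kb (chr5:90909827-90910023, 3.29). Afp was the only member without a CNC peak within 10 kb. A CAC summit inside the gene was found in 54.8% of all protein-coding genes, and one with a CTCF fold enrichment of at least 15 in 20.5%. Upstream of Afp, the nearest CAC peak with a CTCF fold enrichment of at least 10 was the one 85.3 kb away, beyond Alb.

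Afm (chr5:90947958-90982569, plus strand, 16 exons) had peaks of all 3 classes within 10 kb of its start, and none of them reached a fold enrichment of 5. A CAC peak, chr5:90947464-90947754, lay 298 bp upstream with fold enrichments of 2.68 in CTCF (3.26th percentile) and 3.13 in Rad21. Further upstream were CAC peaks at -6.45 kb (chr5:90941379-90941782, CTCF 4.72, Rad21 3.62) and -8.44 kb (chr5:90939361-90939575, CTCF 3.36, Rad21 3.23). A Lone CTCF peak lay at -3.07 kb (chr5:90944775-90945025, 3.13). All of these lie in the 10024 bp between Afp and Afm.

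Inside Afm there were only CNC peaks, at +1.21 kb in intron 1 (chr5:90949025-90949236, 3.09) and at +32.6 kb in intron 13 (chr5:90980394-90980633, 2.71). The latter was the weakest CNC peak of the locus. The nearest strong CAC peaks were the one in Afp intron 7, 18.0 kb upstream of the Afm start, and chr5:91017922-91018425, 35.6 kb past the Afm end (CTCF 19.3, Rad21 13.4). Their motifs were both on the minus strand.

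Beyond Afm, the strongest Rad21 peak was a CAC peak at the end of the window, chr5:91081560-91082199, with a fold enrichment of 20.5 and 18.2 in CTCF. The start of Rassf6, which encodes a protein with a Ras association domain, had a CAC peak within 1 kb, at 4.09 in CTCF and 6.15 in Rad21, and a CNC peak of 3.43 (chr5:91070202-91070649), also within 1 kb. A CNC peak of 4.88 lay within 1 kb of the start of 5830473C10Rik. At the other end of the window, Ankrd17, which encodes an ankyrin repeat protein, had CAC and CNC peaks around its start, and the small gene Gm9958 shared them.

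**Figure D2:**
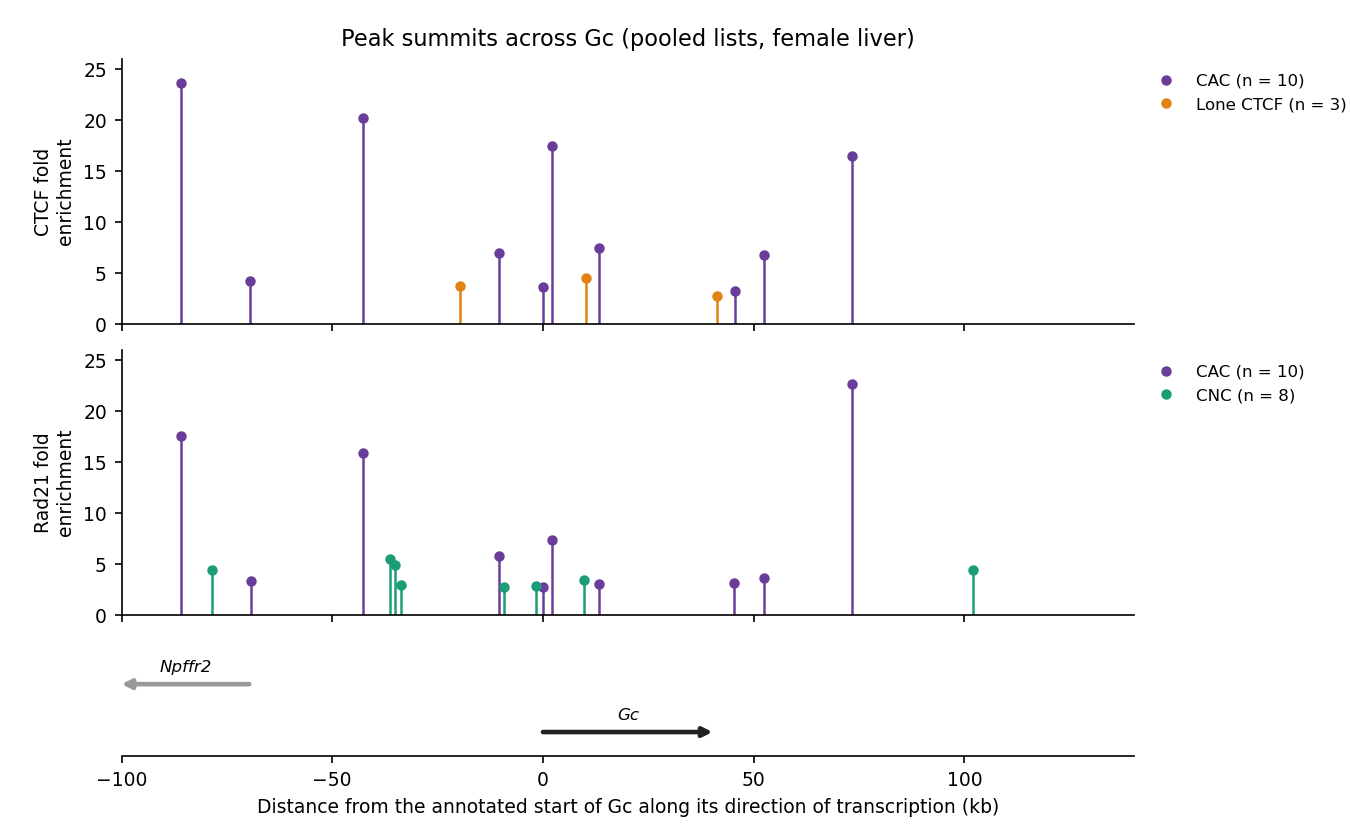
Fold enrichment of each CTCF (top) and Rad21 (middle) peak against the distance of its summit from the start of Gc in kb along its own direction, coloured by class, with Gc (black) and Npffr2 (grey) as arrows, the latter cut at the window's edge. The CAC peak in Gc intron 1 reaches 17.5 in CTCF, and the CNC peaks, up to 5.47, are mostly upstream of the start.

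Gc had the strongest CTCF peak within 10 kb of a member's start, although the peak of 22.1 in Afp intron 7 lay just beyond, at +10.2 kb. Gc (chr5:89846549-89886790, minus strand, 13 exons) had a CAC peak in intron 1, chr5:89884508-89885004, at +2.06 kb. Its CTCF fold enrichment was 17.5 (85.8th percentile), its Rad21 fold enrichment 7.37 (69.6th percentile), and its motif scored 15.8 bits. A weaker CAC peak, chr5:89886641-89886934, had its summit in exon 1, 24 bp past the start, with 3.60 in CTCF and 2.74 in Rad21.

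Deeper in the gene, intron 3 held a CAC peak at +13.3 kb (chr5:89873324-89873737) that reached 7.41 in CTCF and 3.10 in Rad21. Its motif and that of intron 1 were both on the plus strand of the genome, opposite to Gc. Intron 1 also held a Lone CTCF peak at +10.3 kb (chr5:89876347-89876641, 4.48) and a CNC peak at +9.66 kb (chr5:89876935-89877322, 3.49). These peaks lay side by side without overlap.

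Upstream of Gc, CNC peaks lay at -1.54 kb (chr5:89888136-89888451, 2.84) and -9.19 kb (chr5:89895942-89896157, 2.80). With the one in intron 1, Gc had 3 CNC peaks within 10 kb, more than any other member, but each had a Rad21 percentile of at most 23.5. Further out, CNC peaks at -33.7, -35.0 and -36.2 kb had fold enrichments of 3.01, 4.89 and 5.47. The last of these, chr5:89922812-89923123, was the strongest CNC peak of the window and stood at the 93.8th percentile of its class.

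The strong CAC peaks around Gc lay at +73.3 kb (chr5:89813233-89813728, CTCF 16.5, Rad21 22.7), past the 3′ end, and at -42.6 kb (chr5:89929141-89929622, CTCF 20.2, Rad21 15.9), upstream. They were 116 kb apart. The strongest CTCF peak of the window, chr5:89972331-89972898 at -85.9 kb, lay in an intron of Npffr2, which encodes a neuropeptide FF receptor (CTCF 23.6, Rad21 17.6). The nearest CAC peaks of any strength outside the gene were 10.5 kb upstream of the start (CTCF 6.96, Rad21 5.85) and 5.24 kb past the gene's end (CTCF 3.25, Rad21 3.11).

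**Figure D3:**
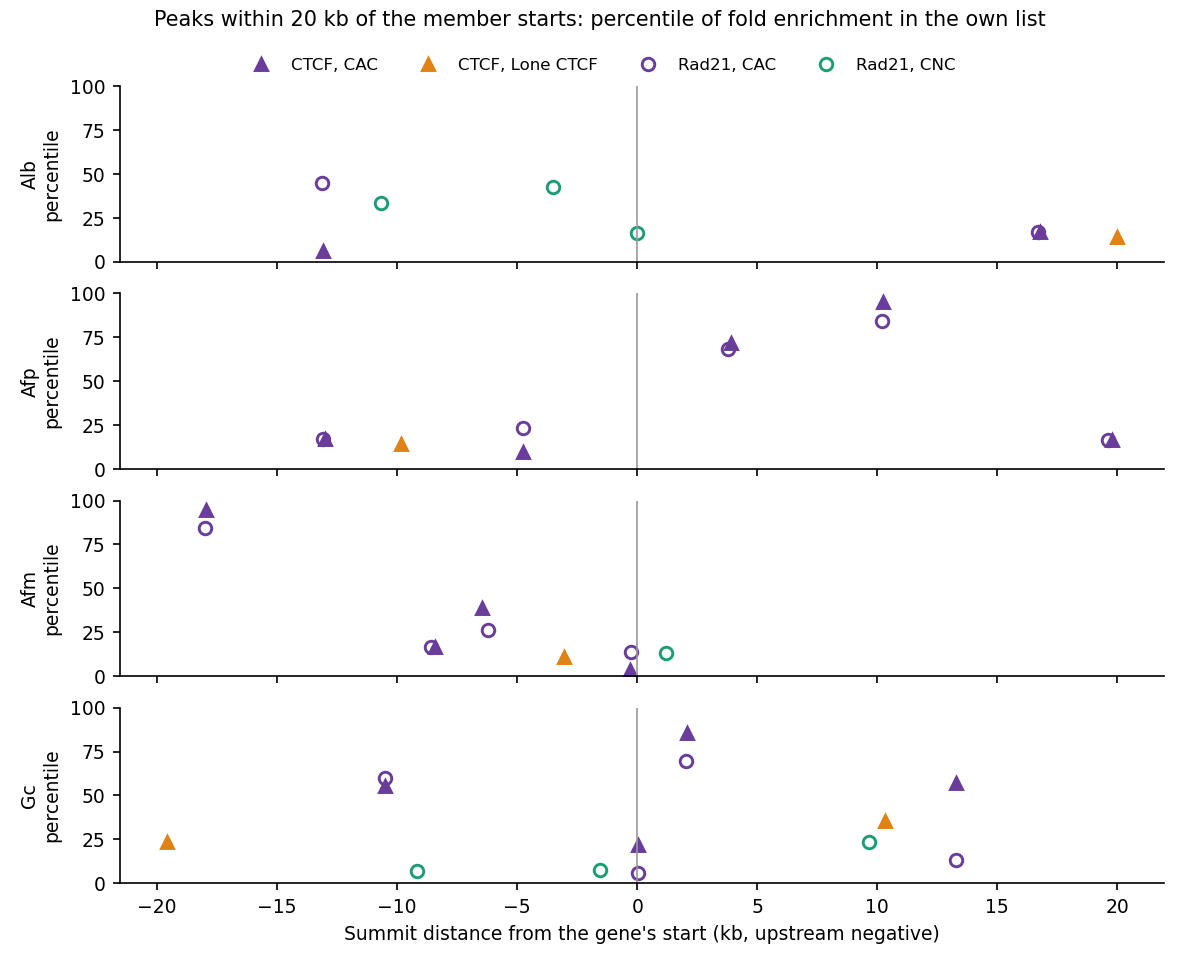
Percentile of fold enrichment in its own list for each peak with a summit within 20 kb of the start of Alb, Afp, Afm or Gc, against the distance in kb, with filled triangles for CTCF and open circles for Rad21. Within 10 kb of Alb there are only the CNC peaks at the 16.7th and 42.9th percentiles, while Afp has CAC peaks at the 71.8th and, at +10.2 kb, the 94.9th percentile of CTCF and Gc has one at the 85.8th.

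The Lone CTCF peaks were spread over both windows. The strongest, chr5:90824637-90824984 at 65.1 kb upstream of Alb, had a fold enrichment of 6.47 (87.4th percentile of its class), and it was the only one with a motif. It had a Lone CTCF neighbour of 3.24 at -66.7 kb. In the same window, others had fold enrichments of 3.29, 3.13 and 4.45, the last at 39.2 kb past the Afm start. Around Gc they lay at -19.6, +10.3 and +41.3 kb, with fold enrichments of 3.71, 4.48 and 2.73.

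Other peaks lay far from the member starts. Upstream of Alb, a CAC peak at -77.6 kb (chr5:90812092-90812574) reached 16.5 in CTCF and 12.4 in Rad21, with a best match of 13.3 bits, and one at -66.2 kb had 3.08 and 2.99. Past Afm, a CAC peak at +82.7 kb reached 13.5 in CTCF, with a motif of 18.1 bits, and 4.49 in Rad21. Inside 5830473C10Rik, a CAC peak (CTCF 4.82, Rad21 3.49) was followed by a CNC peak of 4.30. Around Gc, CNC peaks of 4.48 each lay at -78.4 and +102 kb. CAC peaks there lay at +52.5 kb (CTCF 6.73, Rad21 3.65) and -69.4 kb (CTCF 4.26, Rad21 3.32). The former had a motif of 16.2 bits.

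Counted over the 4 starts, 7 CAC peaks, 2 Lone CTCF peaks and 6 CNC peaks had a summit within 10 kb. Afp, Afm and Gc had CAC peaks, Afp and Afm had Lone CTCF peaks, and Alb, Afm and Gc had CNC peaks. A CNC peak was thus present at 3 of 4 members, against the 20.7% of all genes, and a CAC peak at 3 of 4, against 66.4%. With peaks of -log10 q of at least 10, a CNC peak was present at 1 of 4, against 11.4%, and a CAC peak at 2 of 4, against 57.8%. With 4 genes that lie together on 1 chromosome these counts are a description.

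Because the antibodies are not on the same scale, the rank of each CAC peak in the CTCF list was set beside the rank of its Rad21 peak. The 4 CAC peaks within 50 kb upstream of Alb all ranked higher in Rad21. At 2 of them, with summits 225 and 627 bp from those of Rad21, the peaks would not be CAC if summits within 100 bp were required. Their differences were 28.9, 40.9, 32.0 and 38.7 percentile points, above those of 91.2 to 96.4% of autosomal CAC peaks. The 5 CAC peaks inside Afp and Gc all ranked lower in Rad21, by differences from -3.61 to -44.2 points. Over both windows 14 of 31 CAC peaks ranked higher in Rad21 (45.2%), against 55.6% on the autosomes, where the median difference was 1.88 points. These groups of peaks were formed after the values had been seen.

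**Figure D4:**
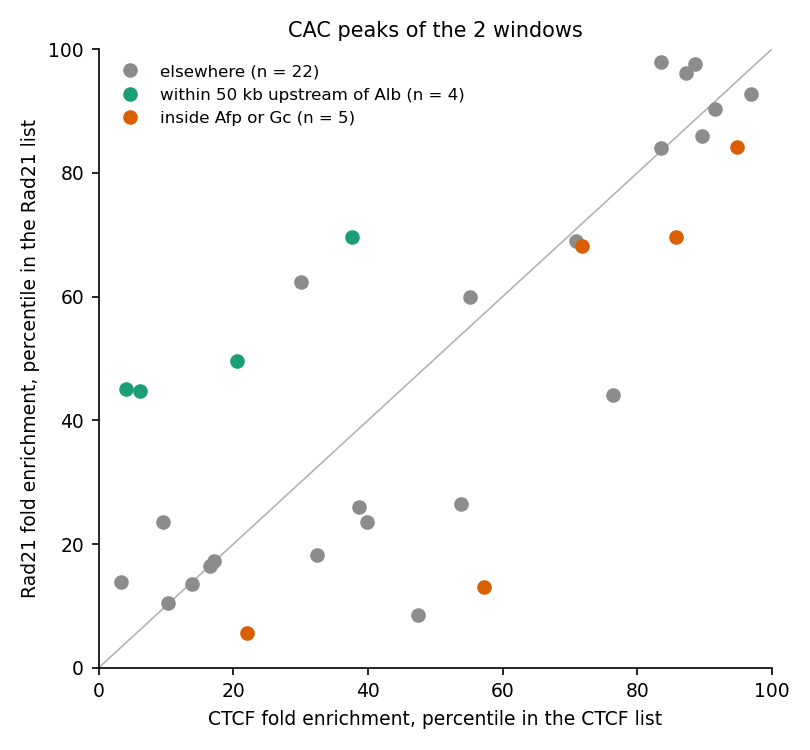
Rad21 percentile against CTCF percentile for the 31 CAC peaks of the 2 windows, each rank within its own list, with the line of equal rank. The 4 peaks upstream of Alb lie above the line and the 5 inside Afp or Gc below it, and of the other 22 peaks 10 lie above.

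Most peaks lay outside protein-coding genes, the only genes counted here. Among the 31 CTCF peaks classed as CAC, 22 were intergenic (71.0%, against 44.8% on the autosomes), 7 intronic and 2 exonic. Of the 20 CNC peaks, 15 were intergenic (75%, against 42.3%) and 5 intronic. The windows include 100 kb on each side of the member genes, and the effect of this on the shares was not tested. The 1003124 bp between Gc and Alb held 23 CAC and 7 Lone CTCF peaks of the CTCF list and 24 CAC and 16 CNC peaks of the Rad21 list, counting those within the windows. On the autosomes, CTCF peaks numbered 2.8 per 100 kb and Rad21 peaks 2.81. The CTCF count over this stretch was thus close to the autosomal density.

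The promoter sequences were compared with the peaks that overlapped them. RefSeq promoters, given on GRCm38.p6, each matched exactly 1 place on mm9 chromosome 5, and the 250 bases before the RefSeq start were used. At Alb all 250 bases lay inside the CNC peak, whose summit was also inside, and no CTCF peak touched them. This CNC peak had a -log10 q of 6.79. At Afm, 30 bases were shared with the CTCF peak and 52 with the Rad21 peak. At Gc, 11 were shared with the CTCF peak of exon 1 and none with a Rad21 peak. The RefSeq start of Gc (position 89886923) lies upstream of the GENCODE start (position 89886790) from which the distances above were measured. Before the GENCODE start of Gc, 144 of 250 bases were shared with the CTCF peak and 83 with the Rad21 peak, so the absence of Rad21 there depends on the annotation. At Afm, 47 and 69 bases were shared when counted in that way, and Alb and Afp kept their values. No peak overlapped the Afp promoter. The overlapped promoters are printed 5′ to 3′ on the strand of the gene, with capitals at matches on either strand to the letters searched.
Alb (mm9 chr5:90889646-90889895, plus strand): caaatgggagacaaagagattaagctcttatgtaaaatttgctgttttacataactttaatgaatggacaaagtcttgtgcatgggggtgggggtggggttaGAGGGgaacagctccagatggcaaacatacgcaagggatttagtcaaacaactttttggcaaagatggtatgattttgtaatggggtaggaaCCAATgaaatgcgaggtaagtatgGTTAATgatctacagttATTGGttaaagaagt
Afm (mm9 chr5:90947725-90947974, plus strand): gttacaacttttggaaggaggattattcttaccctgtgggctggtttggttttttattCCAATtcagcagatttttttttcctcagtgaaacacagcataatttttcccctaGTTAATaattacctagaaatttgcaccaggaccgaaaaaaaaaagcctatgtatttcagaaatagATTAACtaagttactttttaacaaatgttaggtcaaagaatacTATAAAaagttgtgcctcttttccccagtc
Gc (mm9 chr5:89886924-89887173, minus strand): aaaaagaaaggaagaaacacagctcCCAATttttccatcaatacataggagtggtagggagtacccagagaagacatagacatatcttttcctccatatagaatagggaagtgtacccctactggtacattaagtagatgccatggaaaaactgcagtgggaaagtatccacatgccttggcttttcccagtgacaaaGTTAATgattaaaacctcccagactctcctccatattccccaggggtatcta
The letters searched were TATAAA (the TATA box core), CCAAT (the CCAAT box), GTTAAT (the core of an HNF1 site), TGTTTAC (a forkhead site) and CCCTC (part of a CTCF site), on both strands, and these do not contain each other. GTTAAT was in all 4 member promoters, Afp included, and in 6.43% of 32851 RefSeq promoters. CCAAT was likewise in all 4, against 33.8%. TATAAA was in those of Afp and Afm, against 12.4%. CCCTC was in that of Alb, against 60.5%, and TGTTTAC was in none, against 3.17%. These are matches of letters and not measured sites.

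Other genes for plasma proteins made by hepatocytes were counted in the same way. Of 30 such genes, 22 had a CNC peak within 10 kb of the start (73.3%, Wilson interval 55.6 to 85.8%), against the 20.7% of all genes. A CAC peak was near 25 (83.3%, 66.4 to 92.7%), against 66.4%, a background at the lower end of the interval, and a Lone CTCF peak near 16 (53.3%, 36.1 to 69.8%), against 27.2%. With peaks of -log10 q of at least 10, and with the classes drawn again, 12 of 30 had a CNC peak (40%), against 11.4%, and 10 of these were among the 22. With such peaks 70% had a CAC peak, against 57.8%. With all peaks but within 5 kb, 60% had one, against 58.5%. The 39 CNC counts of the list came from 35 peaks, since Apoa1, Apoa4 and Apoc3 shared 2 of them, so these genes are not independent.

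Alb and Gc, with 2 and 3 CNC peaks, were within the range of the list, which ran from 0 to 4. The highest numbers of CNC peaks per gene were at Serpinc1, which encodes antithrombin and had 4 beside a single CAC peak, and at F2, which encodes prothrombin and had 3, 2 Lone CTCF peaks and no CAC peak. Alb had CNC peaks alone within 10 kb, as did 2.07% of all protein-coding genes, whereas each of the 22 list genes with a CNC peak also had a CAC or a Lone CTCF peak. Within 20 kb, Alb had 2 CAC and 1 Lone CTCF peak beside 3 CNC peaks. Kng1 and Serpina1a had no peak of any class within 10 kb.

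**Figure D5:**
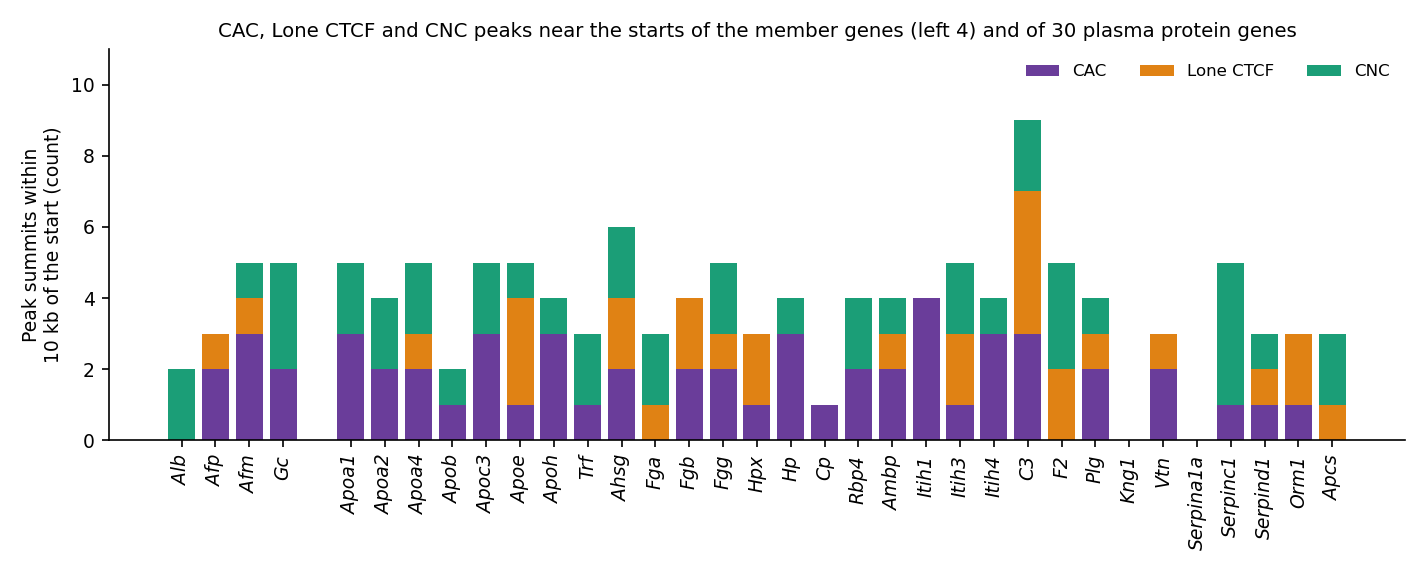
Number of CAC, Lone CTCF and CNC summits within 10 kb of the start, stacked, for the 4 member genes (left) and 30 genes for plasma proteins. Alb has 2 CNC peaks alone, and CNC peaks are near 22 of the 30 listed genes.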

How the data were processed

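Alignment was to mm9 with Bowtie2. The authors discarded reads that mapped to more than 1 place, merged the libraries of an antibody before peak calling in MACS2, and then dropped peaks in blacklisted regions or made of identical reads. For each peak, the deposited lists give a fold enrichment (a ratio to local background), −log10 p and q values, a score and the summit position. The depth of the libraries is not held in the lists, and binding below the calling threshold is not listed.

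Peaks were matched with bedtools 2.31.1 (at least 1 bp shared), and the mm9 genome and GENCODE vM1 genes were accessed through pysam 0.24.0 and samtools 1.23.1. No peak lay past a chromosome end (0 of either list). Overlap and motif steps were tested on simulated data. The alternatives were stricter peaks, other overlaps, windows, distances and motif settings. The genes, lists and letters searched were chosen with earlier results of these data known. The genes named by rule are the members, the protein-coding genes of the windows and the listed genes with at least 3 CNC peaks, and other listed genes were named after their values were seen, for shared peaks or for having none. The peaks named are those within 10 kb of a start or inside a member gene, those that bound a member gene and the strongest of each class, and further peaks were named after their values were seen. Numbers of column values tied to no library and left unused were 0. Other genes and factors were not analysed here.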

Additional observations from a re-analysis of the deposited data

How the results depend on the processing

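Apart from 1 alternative added later, 41 values stayed within 1.5 times the reported count or within its interval, and 21 moved. With peaks of a −log10 q of at least 10 in both lists, CAC peaks fell to 15 in each list and CNC peaks to 11, and the densities were 4.50 (CTCF) and 4.88 (Rad21) per 100 kb. Near the member starts there were then 2 CAC and 1 CNC summits, and 12 plasma protein genes had a CNC peak. With a fold enrichment of at least 5, CAC peaks fell to 12 in each list, Lone CTCF and CNC peaks each came to 5, and the density was 3.19 for each antibody. Classed by summits within 100 bp, Lone CTCF peaks rose to 15, and with windows extended by 200 kb they came to 14. Within 5 kb of the starts there was 1 Lone CTCF summit at the members and 10 plasma protein genes had one. Within 20 kb there were 15 CAC and 5 Lone CTCF summits at the members. With the motif threshold at 5% of flanking windows, 54.8% of CAC peaks had a motif (37.8 to 70.8%), against 64.2% on the autosomes. Added after the data were seen, counting promoter bases before the GENCODE start moved the overlap of Afm with CTCF from 30 to 47 and those of Gc from 11 to 144 (CTCF) and from 0 to 83 (Rad21). Under stricter peaks the classes were drawn again, so a peak whose partner was dropped changed class.

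No paired analysis was possible because each list was called on pooled libraries and no column belongs to a replicate. Leaving out each library in turn was likewise not run, so whether 1 library carries a peak is unknown. Intervals treat peaks as independent, though neighbouring peaks share chromatin. Most peaks of the locus have a fold enrichment below 5, and the part of depth in their classes was not tested.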
